A study of Mus musculus with 16 samples.

Results

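Pla2g5 and 6 related genes encode enzymes that release fatty acids from membrane phospholipids, and their RNA was measured in 16 mouse melanoma biopsies from tumours that were untreated, under treatment with a BRAF inhibitor or resistant to it. The 7 genes (Pla2g5, Pla2g2d, Pla2g2e, Pla2g2f, Pla2g12a, Pla2g4a and Pla2g7) were found by gene name among the non-control probes of the array. They were represented by 11 of 55681 probes, of which 10 passed a filter on dim signal, and all 7 genes were among the 21985 genes and transcripts tested. Pla2g5 was chosen by its measured log2 ratios, because its RNA was higher in resistant than in untreated tumours, and the other members because they belong to the same enzyme superfamily. The difference between resistant and untreated tumours is therefore given as a description with no test, and so are the other comparisons that use the resistant tumours.

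Each array compared the RNA of 1 biopsy, labelled with Cy5, with a pooled mouse reference RNA, labelled with Cy3, so that a log2 ratio of 0 means a level equal to that of the reference. The 4 groups held 4 biopsies each, which were untreated control tumours, tumours after 4 days of treatment, tumours after 60 days of treatment, and tumours labelled resistant after 120 days of treatment. The name of the drug, the strain and genotype of the mice and their age are not given in the sources used here, nor is the source of the pooled reference beyond its name. Sample titles carry codes shared by several biopsies (STS for all 4-day tumours, RG6 and RG7 for 2 each of the 60-day tumours, RG4 and RG5 for 2 each of the resistant tumours, and RG10 for 3 untreated tumours, with RG9 for the fourth), whose meaning is not given, so p-values measure the spread between these samples, and biopsies that share a code may share a source. In the 60-day and the resistant group the codes follow the slides, so that slide and code cannot be told apart there. Markers of skin and of melanocytes were measured in all groups. All 8 epidermal keratinocyte markers, all 8 hair follicle markers, all 6 sebaceous gland markers and all 7 melanocyte markers were above background on at least 1 array of every group. One biopsy, replicate 1 of the resistant group, stood apart, with the lowest mean log2 ratio of the keratinocyte markers (1.75, against 3.71 to 5.36 on the other arrays) and of the sebaceous markers (0.31, against 1.07 to 3.87). In whole biopsies, fewer cells of a type and less RNA per cell cannot be told apart.

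Phospholipases A2 cut the fatty acid from the middle carbon of the glycerol backbone of a phospholipid, which yields a free fatty acid, such as arachidonic acid, and a lysophospholipid. The secreted enzymes are small, depend on calcium and act on membranes, lipoproteins and vesicles outside the cell. The cytosolic enzyme encoded by Pla2g4a prefers arachidonic acid and feeds prostaglandin and leukotriene synthesis. In skin the secreted enzymes are known to occupy separate places, with Pla2g2f in the upper epidermis, Pla2g2e in hair follicles and Pla2g2d in dendritic cells and macrophages, where it dampens inflammation.

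Pla2g5 encodes the group V secreted enzyme, known from macrophages, fat and heart. The array carries a pair of probes for it, and they are shown because the results rest on one of them. The probe used here lies on chromosome 4 of build mm9 (chr4:138355185-138355244), where the last 30 of its 60 bases read as below, with the letters of a polyadenylation signal, AATAAA, in capitals. The other probe covers 750 bases of the genome with 60 bases of sequence (chr4:138356545-138357294), so that it bridges an intron.
Pla2g5, 3′-most probe, last 30 bases: tttagtgttcaaacattttctaAATAAAgc
Pla2g5, probe across an intron: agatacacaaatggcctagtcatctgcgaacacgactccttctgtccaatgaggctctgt
The 3′-most probe was well above background in Cy5 on 16 of 16 arrays. The intron-bridging probe was not well above background in Cy5 on any of the 16 arrays, although it was in the reference RNA on 9 of them. The longest stretch that either probe shared with a probe of another Pla2g gene was 8 bases, over the 30 probes and 21 gene names of that family on the array.

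At the 3′-most probe, the log2 ratios of Pla2g5 in untreated tumours were -1.80, -1.51, -1.52 and -1.52. After 4 days of treatment they were -0.96, -0.98, -1.24 and -0.33. After 60 days they were 0.47, -0.28, 0.18 and -0.48, and in resistant tumours -0.19, 0.33, -0.13 and -0.21. Every treated or resistant tumour lay above every untreated tumour, 3 of the 4-day tumours lay between the untreated and the 60-day range, and the resistant tumours lay within the range of the 60-day tumours. The group means (± SD, n = 4) were -1.59 ± 0.14 in untreated tumours, where the reference RNA held 3.00 times as much Pla2g5 RNA as the tumour, -0.88 ± 0.39 after 4 days, -0.03 ± 0.43 after 60 days and -0.05 ± 0.26 in resistant tumours.

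**Figure D1:**
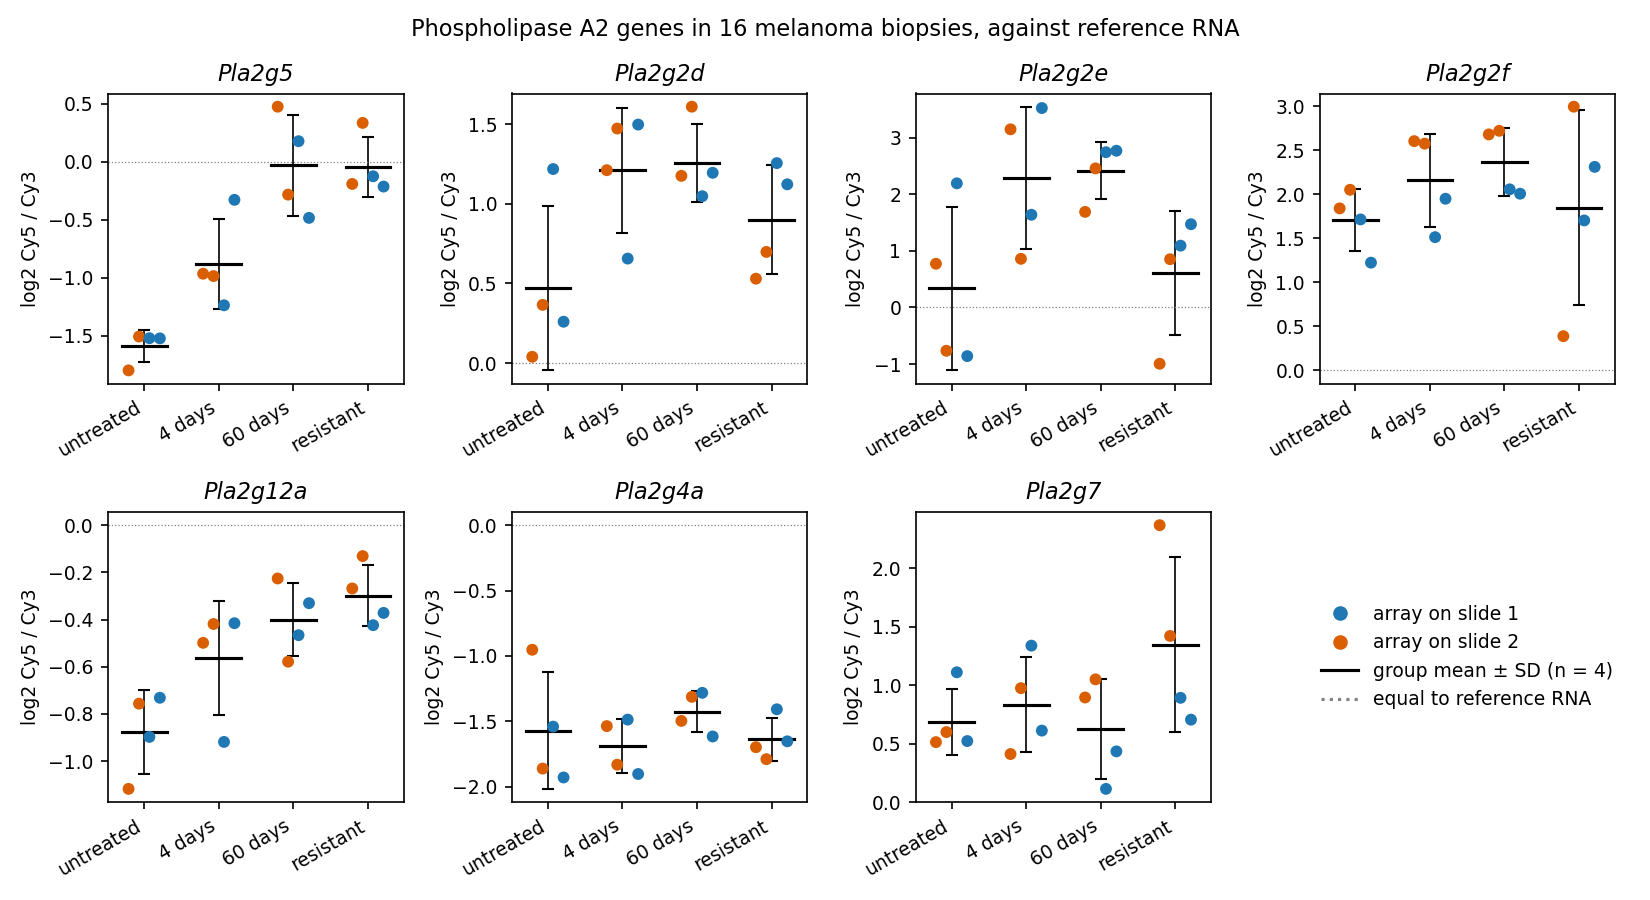
Log2 Cy5 over Cy3 of the 7 phospholipase A2 genes in 4 groups of 4 biopsies, with 1 point per array coloured by slide, and bars for the group mean ± SD; a ratio of 0, where shown, is dotted. Pla2g5 lies between -1.80 and -1.51 in untreated tumours and between -0.48 and 0.47 after 60 days and in resistant tumours, whereas the groups of Pla2g4a overlap throughout.

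Pla2g5 rose after 60 days of treatment, by 1.56 ± 0.22 on the log2 scale against untreated tumours (difference ± SE, a 2.94-fold higher level; limma, Benjamini-Hochberg adjusted p = 0.00686), and it was the only one of the 7 members to pass the threshold of 0.05 there. Over all genes tested, 0.819% passed in that comparison. The difference was 1.37 among the arrays of slide 1 and 1.75 among those of slide 2. The untreated tumours in this test are those on which Pla2g5 was picked, so the low level of that group is shared between the test and the choice. The call was lost when arrays were centred on their median in place of the loess curve (adjusted p = 0.203), and the processed signals of the scanner software gave a larger difference of 2.34, or 5.07-fold. After 4 days the difference from untreated tumours was 0.71 ± 0.22 (adjusted p = 0.133 by limma), without overlap of the groups, as for 2.81% of all genes in that direction. Between 60 and 4 days it was 0.85 ± 0.22 with overlapping groups (95% interval from 0.38 to 1.32; unadjusted p = 0.00166, limma adjusted p = 1), in a comparison where none of the 21985 genes passed and 412 had an unadjusted p under 0.05.

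The difference between resistant and untreated tumours, which chose this gene, was 1.54 ± 0.22, or 2.90-fold, with a gap of 1.29 between the lowest resistant and the highest untreated tumour. In that direction 1.55% of all genes had groups without overlap. Resistant tumours exceeded 4-day tumours by 0.83 (1.78-fold), with the groups separated by 0.11, as for 1.4% of all genes in that direction. Against 60-day tumours the difference was -0.02, with a 95% interval from -0.49 to 0.45. At the intron-bridging probe the log2 ratios ran from -0.37 to 0.44 over all arrays, and the difference between resistant and untreated tumours was 0.09 with overlapping groups. Since that probe was not above background in any tumour, no fold is given for it.

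**Figure D2:**
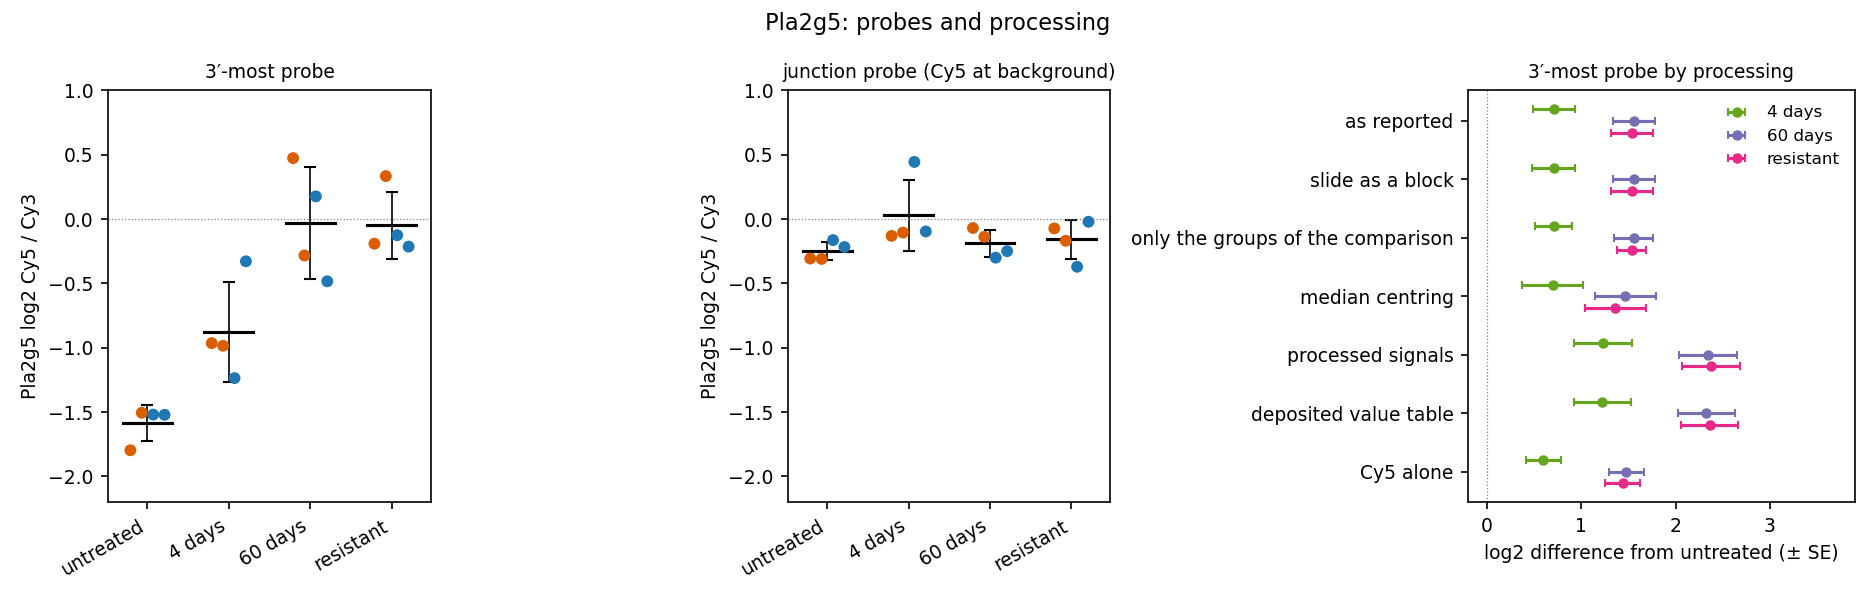
Left and centre, log2 Cy5 over Cy3 of Pla2g5 at its 3′-most and its intron-bridging (junction) probe, with 1 point per array coloured by slide (blue, slide 1; orange, slide 2) and group mean ± SD (n = 4). Right, the log2 difference from untreated tumours (± SE) of the 3′-most probe under 7 ways of processing; the 60-day difference runs from 1.47 with median centring to 2.34 with the processed signals.

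Because Pla2g5 and Pla2g12a had the most similar ratios of any pair of members that includes Pla2g5, their promoters are printed, from 250 bases before to 50 bases after each RefSeq start, on build GRCm38.p6 and in the direction of the gene. Capitals mark matches to motifs searched on both strands, which here are the core of the M-box (CATGTG) and the box named for its letters (CCAAT).
Pla2g5, first start (chr4:138863420-138863719, minus strand): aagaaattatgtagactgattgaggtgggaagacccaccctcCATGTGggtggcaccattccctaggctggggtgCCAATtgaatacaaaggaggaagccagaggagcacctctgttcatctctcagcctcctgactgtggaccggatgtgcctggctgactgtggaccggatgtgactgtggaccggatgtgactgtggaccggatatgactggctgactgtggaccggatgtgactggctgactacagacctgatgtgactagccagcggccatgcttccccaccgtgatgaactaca
Pla2g5, second start (chr4:138819208-138819507, minus strand): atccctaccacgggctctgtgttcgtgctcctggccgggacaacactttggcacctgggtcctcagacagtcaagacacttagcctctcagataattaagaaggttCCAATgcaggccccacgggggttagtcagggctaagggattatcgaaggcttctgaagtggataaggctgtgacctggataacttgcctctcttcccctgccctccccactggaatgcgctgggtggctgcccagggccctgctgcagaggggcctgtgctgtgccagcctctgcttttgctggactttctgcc
Pla2g12a (chr3:129880934-129881233, plus strand): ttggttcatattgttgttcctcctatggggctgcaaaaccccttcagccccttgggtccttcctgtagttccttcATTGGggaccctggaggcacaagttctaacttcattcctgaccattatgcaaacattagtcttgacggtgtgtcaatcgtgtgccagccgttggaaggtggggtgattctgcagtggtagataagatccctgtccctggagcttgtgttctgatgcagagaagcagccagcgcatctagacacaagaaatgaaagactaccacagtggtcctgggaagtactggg
A CCAAT match stood at -175 from the start of Pla2g12a, at -175 from the first start of Pla2g5 and at -144 from its second, and 37.4% of the 32851 RefSeq promoters of that length hold one. A CATGTG match, the core of the M-box bound by factors such as Mitf, stood at -208 from the first start of Pla2g5, and 14.2% of promoters hold one. No match in these 3 windows was found for the E-box (CACGTG, held by 7.15% of promoters), the AP-1 site (TGAGTCA, 5.2%), the CRE (TGACGTCA, 1.79%), the PAR bZIP site (TTATGTAA, 0.938%), the TATA box (TATAAA, 13.6%) or the GC box (GGGCGG, 35.7%).

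Pla2g12a encodes an atypical secreted phospholipase A2 with weak catalytic activity, and its probe was above background on all 16 arrays. Its log2 ratios were -1.12, -0.76, -0.90 and -0.73 in untreated tumours and -0.50, -0.42, -0.92 and -0.42 after 4 days. They were -0.23, -0.58, -0.47 and -0.33 after 60 days, and -0.27, -0.13, -0.42 and -0.37 in resistant tumours. All 60-day and all resistant tumours lay above all untreated tumours, while the 4-day group overlapped the untreated one through 1 low array. The difference at 60 days, 0.48 ± 0.13 or 1.39-fold, missed the threshold (limma adjusted p = 0.0957), and such a gap in that direction was seen for 7.4% of all genes. At 4 days it was 0.31 ± 0.13 (limma adjusted p = 0.263). The resistant tumours were 0.58 above the untreated ones (1.49-fold).

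Among 15549 tested genes with a RefSeq symbol and a value on every array, Pla2g12a had the third highest Pearson correlation with Pla2g5 over the 16 arrays (r = 0.87, rho = 0.80), and r was 0.60 after the group means were removed. The genes above it were Prom1, which encodes a membrane protein used as a stem cell marker (r = 0.89), and Dgat1, an enzyme of triglyceride synthesis (r = 0.88). The next 7 were Fdx1, Atp6v0e, Nupr1, Mansc1, Gas2l1, Hsd17b12 and Chd5, with r from 0.85 down to 0.82. At the other end were Myl6, Bcor, Pold3, Mms19 and Batf3, with r from -0.84 to -0.82. Batf3, a transcription factor of dendritic cells, had a mean log2 ratio of 0.98 in untreated tumours, 0.32 after 4 days, -0.05 after 60 days and 0.12 in resistant tumours. These correlations describe arrays that share their groups and a common reference, and carry no test. Of the other members, the likeness to Pla2g5 was 0.47 for Pla2g2d, 0.31 for Pla2g2f, 0.28 for Pla2g2e, 0.18 for Pla2g7 and -0.02 for Pla2g4a.

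Pla2g2d, Pla2g2e and Pla2g2f are neighbours of Pla2g5 on chromosome 4, which holds a cluster of genes for secreted phospholipases A2. Within 250 kb of the Pla2g5 probe the array covers 12 other genes or transcripts, of which 5 were tested (these 3, Otud3 and the transcript 4930563F15Rik). At 60 days 4 of the 5 had a higher mean than in untreated tumours, and none of the 5 passed the threshold. Otud3, a deubiquitinase gene, differed by 0.18 ± 0.22. Pla2g2a, Pla2g2c, Ubxn10, Rnf186 and Vwa5b1, which lie in the same window, and the unnamed transcripts CK626258 and A_55_P2026964 were not well above background on any array.

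Pla2g2d, which encodes the group IID enzyme, had log2 ratios of 0.04, 0.37, 1.22 and 0.26 in untreated tumours. They were 1.21, 1.47, 0.66 and 1.497 after 4 days, 1.18, 1.61, 1.05 and 1.19 after 60 days, and 0.53, 0.70, 1.26 and 1.12 in resistant tumours. The probe was not well above background on untreated replicate 4. Replicate 3 of the untreated group lay within the range of the treated tumours and the other 3 lay below it. At the second probe untreated replicate 1 was at 0.69, within the range of the 4-day and 60-day tumours there (from 0.59 to 1.56). Replicates 2 and 4 stayed below that range, at 0.20 and 0.30, but there the second probe was not well above background. Its reference signal was well above background on 1 of 16 arrays, so its ratios and differences are uncertain. At the probe used, the log2 Cy5 of untreated replicate 1 was 7.72, within the 4-day and 60-day range from 7.19 to 8.31, so its low ratio there was not a low Cy5 signal. The difference from untreated tumours was 0.74 ± 0.26 at 4 days (1.67-fold, adjusted p = 0.174) and 0.79 ± 0.26 at 60 days (1.72-fold, adjusted p = 0.136), by limma. Without untreated replicate 3 it was 0.99 (limma adjusted p = 0.0353) and 1.03 (limma adjusted p = 0.0271). Neither passed under any other of the 24 alternatives. With arrays left out in turn, 45 to 702 of all genes passed at 4 days and 22 to 1138 at 60 days. The other probe of Pla2g2d gave differences of 0.64 and 0.53 over all arrays. Resistant tumours were 0.43 above untreated tumours.

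Pla2g2e, the group IIE enzyme of hair follicles, had the widest range of the members. Its log2 ratios were 0.77, -0.76, 2.19 and -0.86 in untreated tumours and 3.15, 0.86, 1.64 and 3.52 after 4 days. They were 1.69, 2.46, 2.74 and 2.77 after 60 days, and -0.99, 0.85, 1.09 and 1.47 in resistant tumours. At this probe every resistant tumour lay below every 60-day tumour, and the untreated group overlapped both treated groups through replicate 3. The difference from untreated tumours was 1.96 ± 0.73 at 4 days (3.88-fold, adjusted p = 0.203) and 2.08 ± 0.73 at 60 days (4.22-fold, adjusted p = 0.158), by limma. Without untreated replicate 3 the 60-day difference was 2.70 (adjusted p = 0.0431 by limma). The 60-day difference passed under no other of the 24 alternatives. In that comparison 22 to 1138 of all genes passed with arrays left out in turn. The second probe of Pla2g2e gave smaller differences of 0.80 and 0.74, and was well above background in 2 of the 4 untreated tumours. On resistant replicate 1 the probe was not well above background. Resistant tumours were 1.81 below 60-day tumours, with that array at its measured value, and groups without overlap in that direction were seen for 2.52% of all genes. Without resistant replicate 1 the difference was -1.28. At the second probe the difference between resistant and 60-day tumours was -0.67 over all arrays, with overlapping groups.

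Pla2g2f, the group IIF enzyme of the upper epidermis, had log2 ratios of 1.84, 2.05, 1.71 and 1.22 in untreated tumours. They were 2.60, 2.57, 1.51 and 1.95 after 4 days, and 2.68, 2.72, 2.06 and 2.01 after 60 days. In resistant tumours they were 0.39, 2.99, 1.70 and 2.31, so that this group held both the lowest and the highest value of the series. The array at 0.39 is resistant replicate 1, the one on which the keratinocyte markers were lowest, and there the probe was not well above background. The differences from untreated tumours were 0.45 ± 0.43 at 4 days (95% interval from -0.48 to 1.38) and 0.66 ± 0.43 at 60 days (from -0.27 to 1.59), with adjusted p = 0.693 and 0.451 by limma. In Cy5 alone, without the reference channel, they were 1.78 and 2.18 with an SE of 0.89 (limma adjusted p = 0.302 and 0.198). The Cy3 signal of the reference was not constant at this probe. Untreated replicate 4 had a log2 Cy5 of 8.58 at a ratio of 1.22, and 4-day replicate 4 had 11.75 at a ratio of 1.95. The ratios of Pla2g2f are therefore not levels against a fixed reference, and the cause was not tested. In resistant tumours the mean log2 ratio was 0.14 above the untreated mean, and 0.63 above it without replicate 1.

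**Figure D3:**
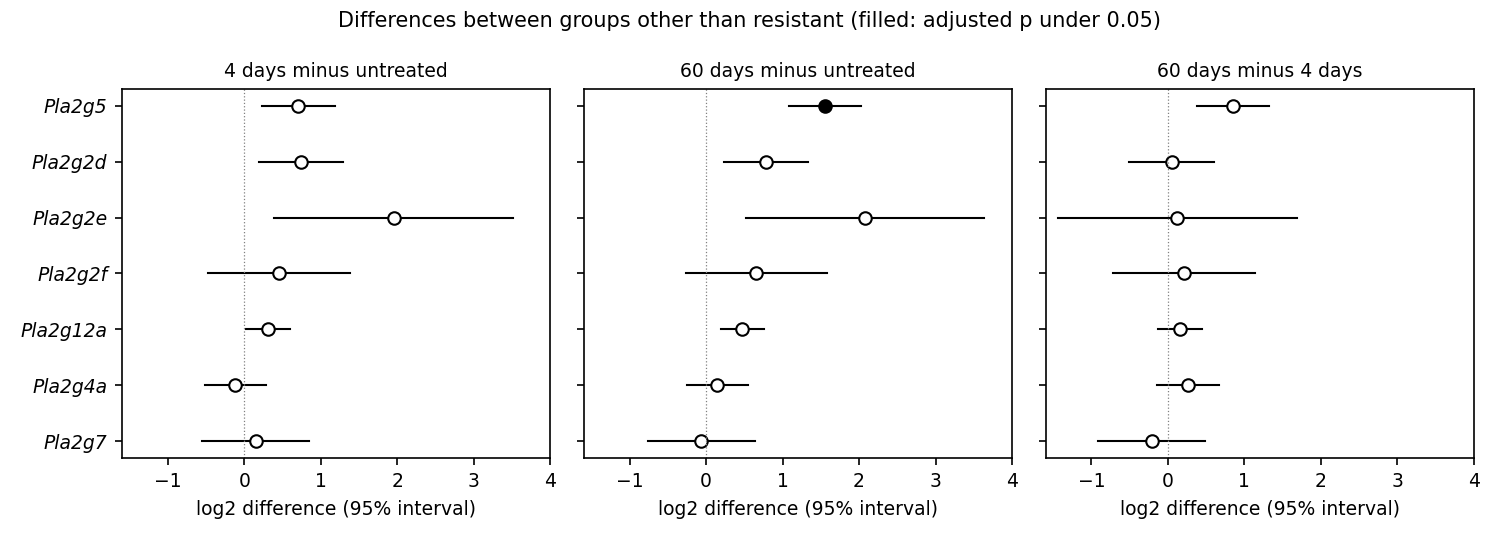
Log2 differences of the 7 genes with 95% intervals in the 3 comparisons that leave out the resistant tumours, with filled points for an adjusted p under 0.05. The single filled point is Pla2g5 at 60 days against untreated tumours, at 1.56.

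Pla2g4a, the cytosolic enzyme selective for arachidonic acid, stood below the reference RNA on every array, with group means from -1.69 to -1.43. Its log2 ratios ran from -1.93 to -0.95 in untreated tumours, from -1.90 to -1.49 after 4 days, from -1.62 to -1.28 after 60 days and from -1.79 to -1.41 in resistant tumours, so that all groups overlapped. The difference from untreated tumours was -0.12 at 4 days, with a 95% interval from -0.52 to 0.28, and 0.14 at 60 days, with an interval from -0.26 to 0.54.

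Pla2g7 encodes the plasma platelet-activating factor acetylhydrolase, which macrophages secrete. Its log2 ratios were 0.51, 0.60, 1.11 and 0.52 in untreated tumours, 0.41, 0.97, 1.34 and 0.61 after 4 days, and 0.89, 1.05, 0.11 and 0.43 after 60 days. In resistant tumours they were 2.37, 1.42, 0.89 and 0.70, and the value of replicate 1 was the highest of the series. The differences of 0.15 at 4 days and -0.06 at 60 days had 95% intervals that include 0 (from -0.55 to 0.85 and from -0.76 to 0.64). Resistant tumours were 0.66 above untreated tumours, but the difference was -0.02 on slide 1 and 1.34 on slide 2 (codes RG5 and RG4 of the resistant tumours), and 0.32 without resistant replicate 1. At the second probe of Pla2g7 it was 0.34, with overlapping groups.

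Counted over the 7 members, none passed the threshold at 4 days against untreated tumours, where 1.34% of all genes did, and 4 of the 7 (Pla2g5, Pla2g2d, Pla2g2e and Pla2g12a) had an unadjusted p under 0.05 by limma, against 16.7% of all genes. At 60 days 1 of 7 passed, against 0.819%, and the same 4 genes had an unadjusted p under 0.05, against 18.7%. Between 60 and 4 days none passed, as for all genes, and 1 of 7 had an unadjusted p under 0.05, against 1.87%. Without Pla2g5, whose choice used the same untreated tumours, none of the other 6 members passed at either time and 3 of them had an unadjusted p under 0.05 by limma. Members and their neighbours are not independent samples, and both treated groups were set against the same 4 untreated tumours.

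Log2 ratios of several members ran with the markers of cell types across the 16 arrays (84 relations of 7 genes with 12 marker lists, with permutation p adjusted over the 84). The permutation ignored the groups and the shared title codes, so its p-values do not allow for differences between groups. Pla2g2f followed the 8 keratinocyte markers, such as Krt5, Krt10 and Ivl, with r = 0.97 and rho = 0.97 (permutation p = 1e-05 for each, the smallest that the resampling can give; adjusted p = 0.00042 for r and 0.00084 for rho). Within slide 1 and slide 2 the r was 0.94 and 0.995, after removal of the group means 0.96, and without the 2 arrays farthest from the median 0.96. With the 1 array that lay apart on the keratinocyte markers removed, it was 0.97 over 15 arrays. These are relations between ratios, and the ratios of Pla2g2f are not levels against a fixed reference. Untreated replicate 3 had a log2 Cy5 of 10.71 at a ratio of 1.71, and untreated replicate 2 had 9.17 at 2.05. No relation was computed in Cy5 alone. Pla2g2f also passed with the sebaceous gland markers (r = 0.79, rho = 0.81; permutation p adjusted over the 84 = 0.00504 and 0.00756) and with the melanocyte markers (r = 0.79, rho = 0.74; adjusted permutation p = 0.00504 and 0.022). In melanoma biopsies the melanocyte markers do not tell tumour cells from melanocytes of the skin. The part of the keratinocyte, sebaceous gland and melanocyte markers in the spread of Pla2g2f among resistant tumours was not tested.

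Pla2g2e went with the 8 hair follicle markers, such as Krt25, Krt71 and Tchh. On 3 arrays (untreated replicates 2 and 4 and resistant replicate 1) these markers lay between 1.71 and 2.19, apart from the 3.66 to 5.78 of the other 13, so the relation was also computed within the 13 arrays. There r was 0.77 and rho 0.81 (unadjusted permutation p = 0.00113 and 0.00106). That subset was chosen after the data were seen, and the permutation ignored the groups. Over the 16 arrays r was 0.85 after removal of the group means. The mean hair follicle level was 3.34 in untreated tumours (range from 1.71 to 4.79), 5.07 after 4 days (from 4.48 to 5.78), 5.15 after 60 days (from 4.98 to 5.43) and 3.68 in resistant tumours (from 2.01 to 4.91), which is the order of the Pla2g2e means. Over the 16 arrays Pla2g2e also ran opposite to the fibroblast markers (r = -0.74, rho = -0.76; permutation p adjusted over the 84 = 0.017 and 0.0183) and the macrophage markers (r = -0.69, rho = -0.74; adjusted permutation p = 0.0352 and 0.022), and with the sebaceous gland markers (r = 0.74, rho = 0.60; adjusted permutation p = 0.017 and 0.124). The part of these markers in the Pla2g2e differences was not tested.

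Pla2g2d went with the 6 sebaceous gland markers, such as Scd1, Mc5r and Awat2, over all arrays (r = 0.81, permutation p adjusted over the 84 = 0.00605; rho = 0.64, adjusted p = 0.0915). That relation rested on 4 arrays with low sebaceous levels (3 untreated and 1 resistant), since within the other 12 arrays r was 0.36 (permutation p = 0.259). With those 4 arrays kept, r for Pla2g2d was 0.65 after removal of the group means, and 0.85 and 0.80 within slide 1 and slide 2. Its relation with the fibroblast markers was negative and the only one to pass by both measures (r = -0.67, rho = -0.69; permutation p adjusted over the 84 = 0.0425 and 0.0458). By r alone it also passed with the macrophage markers (r = -0.64, rho = -0.56; adjusted permutation p = 0.0472 and 0.146) and the hair follicle markers (r = 0.66, rho = 0.55; adjusted permutation p = 0.0461 and 0.146). With the dendritic cell markers r was 0.17, and 0.69 after removal of the group means. With the T cell markers these values were 0.46 and 0.84, and neither list passed over the 16 arrays. Pla2g7 went with the 10 macrophage markers, of which 9 were measured and Cd163 did not pass the filter (r = 0.69, rho = 0.58, permutation p adjusted over the 84 = 0.0352 and 0.142). Without the 2 arrays farthest from the median this r was 0.49, and resistant replicate 1 had both the highest Pla2g7 and the highest macrophage level (2.09).

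The relations of Pla2g5 with the 12 lists are given as a description with no test. Permutation ignores the groups, and the arrays include those that chose Pla2g5. Its p-values were among the 84 adjusted together, and none passed. The strongest relation was with the sebaceous gland list (r = 0.58, rho = 0.67). Within the 12 arrays that did not lie apart r was 0.80 and rho 0.73, again with no test. Those 12 arrays hold 1 untreated tumour and so mix the groups, and after removal of the group means r was 0.37 over the 16 arrays. All 6 sebaceous markers were above background on at least 1 array of every group, with mean levels from 1.07 to 2.63 in untreated tumours, from 2.52 to 3.54 after 4 days, from 3.19 to 3.87 after 60 days and from 0.31 to 3.74 in resistant tumours. In resistant replicate 1, where the sebaceous level was 0.31, Pla2g5 was at -0.19, inside the range of the other resistant tumours. The part of the sebaceous markers in the 60-day difference of Pla2g5 was not tested. With macrophage, adipocyte and dendritic cell markers, r was -0.31, -0.02 and -0.49.

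**Figure D4:**
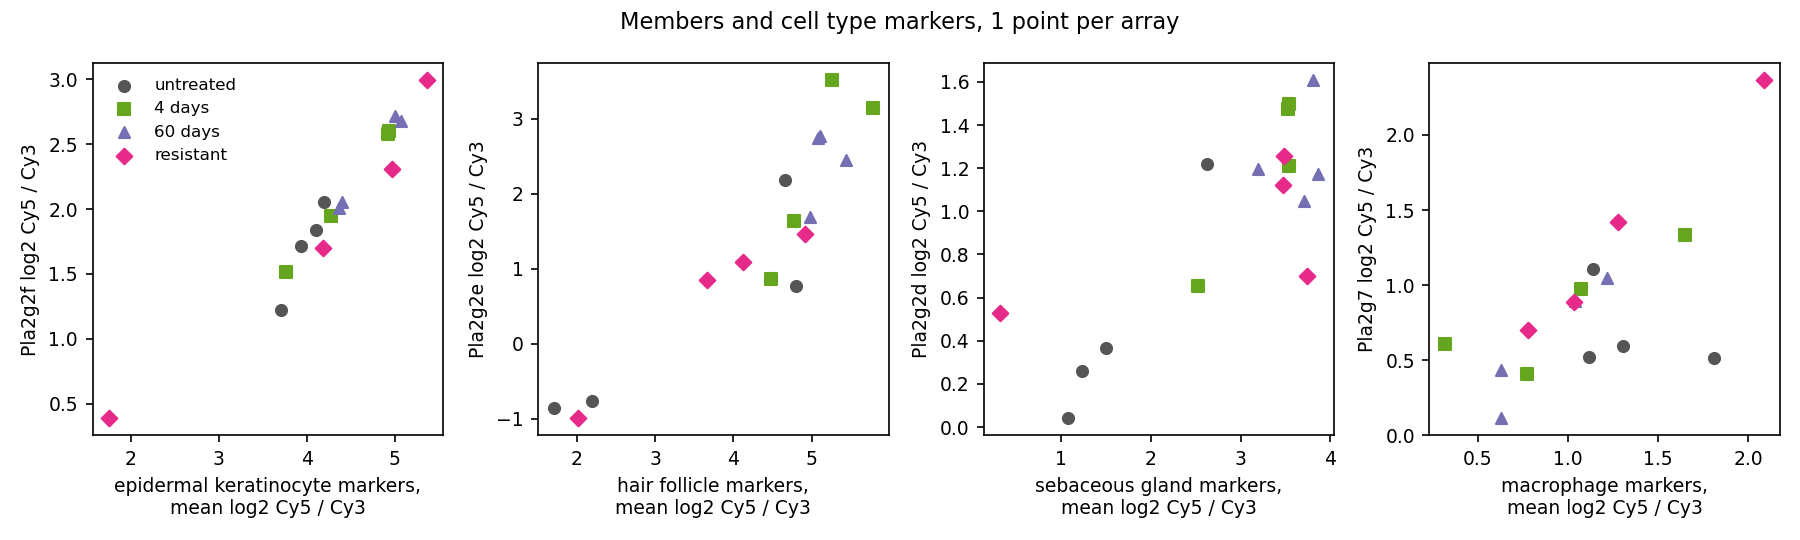
Log2 Cy5 over Cy3 of a phospholipase A2 gene against the mean log2 ratio of a marker list, 1 point per array, with symbols for the 4 groups. Pla2g2f rises with the keratinocyte markers over 15 arrays, and resistant replicate 1 lies apart at 1.75 on the marker axis; 3 arrays of hair follicle and 4 of sebaceous gland markers lie apart at low levels.

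The wider pathway was followed through 78 genes of phospholipases, eicosanoid synthesis and signalling, and reacylation, of which 69 were tested. Of these 69, 1 was higher and none lower at 4 days, 1 was higher and none lower at 60 days (over all genes 1.34% and 0.819% passed in either direction), and none passed between 60 and 4 days. The median difference over the list was 0.17 at 4 days and 0.19 at 60 days, beside -0.01 and 0.00 over all genes. Pnpla2, the adipose triglyceride lipase, rose at 4 days by 0.87 ± 0.19 (1.82-fold, limma adjusted p = 0.0456). Lpcat3, which puts polyunsaturated fatty acids back into lysophospholipids, rose at 60 days by 1.18 ± 0.24 (2.26-fold, limma adjusted p = 0.0376). Both calls were lost under median centring and with the processed signals, and leaving out 1 array ended the Pnpla2 call in 12 of 16 cases and the Lpcat3 call in 8 of 16.

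**Figure D5:**
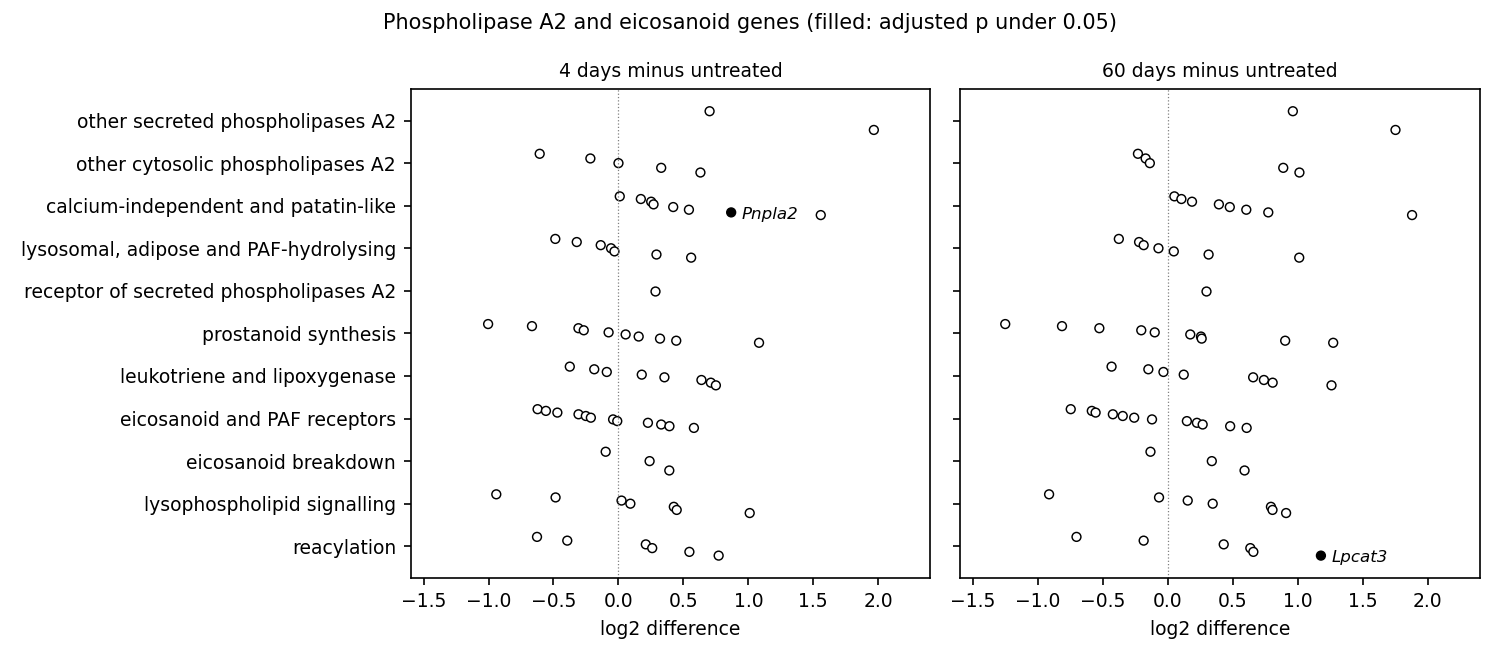
Log2 differences from untreated tumours of 69 genes of the pathway list at 4 and 60 days, 1 point per gene in 11 sublists, with filled points for an adjusted p under 0.05. All 8 genes of the calcium-independent and patatin-like sublist lie above 0 in both panels (Pla2g6 falls below 0 with the processed signals), and the filled points are Pnpla2 at 0.87 and Lpcat3 at 1.18.

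Among the other secreted enzymes, Pla2g10, of the hair follicle and gut, had a mean log2 ratio of 1.17 ± 1.21 (SD, n = 4) in untreated tumours. It stood at 3.13 ± 1.08 after 4 days, 2.92 ± 0.37 after 60 days and 1.25 ± 1.07 in resistant tumours. Neither difference passed (adjusted p = 0.148 at 4 days and 0.169 at 60 days, limma), with untreated replicate 3 again at the top of its group. Without that array both passed (adjusted p = 0.0439 and 0.0479 by limma), and neither did under any other of the 24 alternatives. With arrays left out in turn, 45 to 702 of all genes passed at 4 days and 22 to 1138 at 60 days. Pla2g1b, Pla2g2a, Pla2g2c and Pla2g12b did not pass the filter on dim signal. All 8 calcium-independent and patatin-like enzymes had positive differences at both times, from 0.01 to 1.56 at 4 days and from 0.05 to 1.88 at 60 days (48.7% and 50.2% of all genes had positive differences), with 1 call at 4 days and none at 60 days; Pla2g6 turned slightly negative with the processed signals. Pla2g6, the calcium-independent enzyme of this sublist, differed by 0.01 and 0.05. Pla2g15, the lysosomal enzyme, differed by -0.14 and -0.38, and Pla2r1, the receptor that binds secreted phospholipases A2, by 0.28 and 0.29; none of these passed.

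Downstream of arachidonic acid, the cyclooxygenase Ptgs1 differed from untreated tumours by 0.45 at 4 days and by 0.90 ± 0.30 at 60 days (limma adjusted p = 0.519 and 0.144). The 60-day difference passed with slide as a block (limma adjusted p = 0.0297) and under no other of the 24 alternatives. The inducible cyclooxygenase Ptgs2 differed by -0.67 and -1.25, with an SE of 0.75 (adjusted p = 0.757 and 0.395 by limma). Its 60-day difference passed when only those groups were fitted (limma adjusted p = 0.0444) and under no other of the 24 alternatives. Over all genes 12 to 1258 passed at 60 days across the alternatives, against 180 as reported. The Ptgs2 probe was well above background on 3 of 4 arrays at 4 days and on 3 of 4 at 60 days. Ptges, a prostaglandin E synthase, differed by -0.08 and -0.21. Of the leukotriene genes, Alox5 differed by -0.09 and 0.12 and its partner Alox5ap by -0.37 and -0.43. None of the 10 prostanoid, 8 leukotriene and lipoxygenase or 12 receptor genes tested passed at either time.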

How the data were processed

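RNA of 16 biopsies was measured on 2-colour arrays. Scanner files written by Agilent Feature Extraction 10.7.3.1 hold, per the file headers, for each spot a mean intensity and a median background intensity in both dyes, as well as processed intensities, the log10 ratio of Cy5 over Cy3, and flags of another kind (other) for spots above background. The deposited value table holds log2 ratios that correspond to those log10 ratios. Here the background was removed by normexp (offset 50), ratios were normalized by loess within each array, outlier spots (0.550% of non-control spots) were left out, and spots of a probe were averaged. A probe was kept when well above background in Cy5 on at least 4 arrays, and the brightest kept probe stood for its gene. Symbols of 28026 probes came from RefSeq accessions. A model over the 4 groups was fitted with limma 3.58.1 in R 4.3.3, and Benjamini-Hochberg adjusted p under 0.05 was called. The script was tested on simulated data. The 16 arrays, 8 on each of 2 slides with 2 of every group, limit the precision; position on a slide followed the group and cannot be told apart from it. Members and gene lists were chosen with earlier results of these data known. Named genes are the members, list genes past the threshold, 10 list genes fixed by name (Pla2g2a, Pla2g10, Pla2g6, Pla2g15, Pla2r1, Ptgs1, Ptgs2, Ptges, Alox5 and Alox5ap), the 10 genes most like and 5 least like Pla2g5, and its neighbours within 250 kb. Relations with marker lists (100000 permutations), the split of arrays at the widest gap of a list, and the promoter motifs were chosen after the files were seen. Alternatives were slide as a block, only the groups compared, median centring, processed signals, the deposited table, Cy5 alone, no filter, the mean of kept probes, and each array left out. RefSeq proteins and a genome were not used here.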

Additional observations from a re-analysis of the deposited data

Results flagged for a closer look

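In 4 of the 28 combinations of member and group, 1 array lay far from the other 3 by Dixon's test at the 95% level, which chance does in about 1 of 20 groups. For Pla2g5 these were resistant replicate 2, at a log2 ratio of 0.33 above the other resistant tumours, and untreated replicate 1, at -1.80 below the other untreated tumours. For Pla2g12a it was replicate 3 of the 4-day group, at -0.92 and below its group. For Pla2g7 it was untreated replicate 3, at 1.11 and above its group. Without resistant replicate 2 the Pla2g5 difference between resistant and untreated tumours was 1.41, and without untreated replicate 1 it was 1.47.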

How the results depend on the processing

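The limits are these: Pla2g5 rests on 1 probe, and the size of its difference moved with the way the signal was processed. No paired analysis was possible because replicate numbers of 3 groups follow the order of accession and pair no biopsies. The 60-day call of Pla2g5 held under 23 of 24 alternatives and was lost under median centring (1.47). Some alternatives could not move the difference itself. With no filter or the mean of kept probes the same probe was used. Leaving out a 4-day or resistant array kept all 60-day and untreated arrays. The resistant minus untreated difference of Pla2g5 was 2.38 with processed signals and 2.36 with the deposited table. The number of members called at 60 days was 0 with median centring. With arrays left out in turn it ran from 1 to 3 at 60 days and from 0 to 1 at 4 days, the upper values without untreated replicate 3. The count over all genes then ran from 22 to 1138 at 60 days and from 45 to 702 at 4 days.

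Of the pathway list, the number called at 4 days was 3 with slide as a block, 2 with Cy5 alone and with the mean over kept probes, 0 with only the groups compared, median centring, processed signals, the deposited table or no filter, and 0 to 6 with arrays left out. At 60 days it was 4 with slide as a block, 12 with only the groups compared, 0 with median centring, processed signals or the deposited table, and 0 to 10 with arrays left out. Over all genes the count ran from 12 to 702 at 4 days, from 12 to 1258 at 60 days and from 0 to 1 between the treated groups; the cause was not tested.

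Differences near 0 changed sign. At 4 days against untreated, Ptges was 0.0244 with median centring, and Pla2g6 was -0.0391 with processed signals, -0.0389 with the deposited table and -0.092 with Cy5 alone. At 60 days Pla2g7 was 0.0398 with median centring, and Pla2g6 was -0.00028 with processed signals or the deposited table. Between 60 and 4 days Pla2g2d was -0.063 with Cy5 alone and -0.0307 with the mean over kept probes. With arrays left out in turn, the 4-day difference ran from -0.24 to 0.0876 for Pla2g4a, from -0.0203 to 0.29 for Pla2g7, from -0.19 to 0.0228 for Ptges, from -0.26 to 0.25 for Alox5, from -0.0278 to 0.0328 for Pla2g6 and from -0.31 to 0.0256 for Pla2g15. The 60-day difference ran from -0.21 to 0.11 for Pla2g7 and from -0.0481 to 0.46 for Alox5. The 60-day minus 4-day difference ran from -0.14 to 0.14 for Pla2g2d, from -0.35 to 0.53 for Pla2g2e and from -0.0101 to 0.35 for Pla2g2f. With Cy5 alone Pla2g2f was 1.78 above untreated tumours at 4 days, 2.18 at 60 days and 0.82 in resistant tumours, which were 1.36 below 60-day tumours.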

Other observations

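In the resistant group Ptgs2 ranged from -4.23 to 0.63 in log2 ratio, against a range from -4.24 to -3.71 after 60 days. Its probe was well above background on 3 of 4 arrays in each of these groups, so the low ends may lie near the floor. Alox5ap ranged from -0.04 to 1.94 in resistant tumours and from -0.53 to -0.05 after 60 days. Both are values of 4 arrays a group, with no test.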
